A study of Mus musculus with 24 samples.

Results

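The Period genes Per1, Per2 and Per3 and the cryptochrome genes Cry1 and Cry2 were followed through 2 days of a synchronized clock in WT and Rev-erb deficient cells. They were taken as the 5 rows with these symbols among the 33079 rows of the exon-level expression table, and all 5 were among the 15112 genes with a mean above 0.5 RPM, reads scaled to the library total alone, in either genotype. WT cells were mouse ES cells carrying the Per2::Luciferase knock-in, and KO cells carried the same knock-in and were deficient in both Rev-erba (Nr1d1) and Rev-erbb (Nr1d2). Both were differentiated for 28 days through embryoid bodies, given 100 nM dexamethasone, and frozen every 4 h from 12 to 56 h later. Each genotype had 12 libraries, 1 per time point, each from the pooled RNA of 3 embryoid bodies. The study describes the KO cells as a double knockout line, made from picked colonies edited first at Rev-erbb and then at Rev-erba. Genotype and cell line therefore cannot be told apart.

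PER and CRY proteins are the negative limb of the mammalian clock. CLOCK and BMAL1, or NPAS2 in place of CLOCK, activate the Per and Cry genes through E-box sequences, and the PER and CRY proteins then enter the nucleus and repress that activation, which closes the loop after about a day. Per3 and Cry1 are further controlled through D-box sequences, bound by DBP, TEF, HLF and NFIL3, and Cry1 also through elements shared by the ROR activators and the REV-ERB repressors. Per1 and Per2 also respond directly to glucocorticoids, and dexamethasone is used to set cultured cells to a common phase.

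To show which of these elements lay close to the start sites, 250 bases upstream of each annotated start were read from the RefSeq promoter table (GRCm38.p6), printed 5′ to 3′ along the gene. Of the 5 members, 4 matched the table, Per1 with 2 start sites, and Per2 did not match. Capitals mark exact matches, on either strand, to the E-box CACGTG, its variant CACGTT (read as AACGTG on the opposite strand), the D-box TTATGNAA, the CCAAT box (ATTGG on the opposite strand) and AGGTCA, the core of the ROR and REV-ERB element (TGACCT on the opposite strand). No match overlapped another.
Per1, upstream start, chr11:69098699-69098948, plus strand: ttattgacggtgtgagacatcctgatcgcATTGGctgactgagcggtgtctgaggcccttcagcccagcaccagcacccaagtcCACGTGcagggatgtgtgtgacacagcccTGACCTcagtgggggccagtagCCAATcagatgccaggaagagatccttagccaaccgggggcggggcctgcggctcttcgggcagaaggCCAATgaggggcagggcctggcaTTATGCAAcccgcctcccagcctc
Per1, downstream start, chr11:69099902-69100151, plus strand: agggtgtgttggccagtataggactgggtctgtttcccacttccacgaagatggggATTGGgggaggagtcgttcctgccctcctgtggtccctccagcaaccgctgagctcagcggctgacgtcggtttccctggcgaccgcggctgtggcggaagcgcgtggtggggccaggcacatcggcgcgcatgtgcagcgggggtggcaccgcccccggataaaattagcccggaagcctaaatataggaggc
Per3, chr4:151044666-151044915, minus strand: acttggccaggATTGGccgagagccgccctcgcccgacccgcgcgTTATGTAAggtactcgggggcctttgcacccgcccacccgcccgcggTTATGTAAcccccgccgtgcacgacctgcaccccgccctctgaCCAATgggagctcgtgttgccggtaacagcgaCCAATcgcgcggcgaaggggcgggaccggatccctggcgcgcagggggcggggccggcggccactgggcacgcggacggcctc
Cry1, chr10:85185055-85185304, minus strand: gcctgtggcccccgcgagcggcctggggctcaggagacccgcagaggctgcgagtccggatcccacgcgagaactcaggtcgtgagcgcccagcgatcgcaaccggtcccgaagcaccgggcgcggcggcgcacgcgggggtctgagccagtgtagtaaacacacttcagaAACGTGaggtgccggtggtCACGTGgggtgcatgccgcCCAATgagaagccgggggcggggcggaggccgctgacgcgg
Cry2, chr2:92434070-92434319, minus strand: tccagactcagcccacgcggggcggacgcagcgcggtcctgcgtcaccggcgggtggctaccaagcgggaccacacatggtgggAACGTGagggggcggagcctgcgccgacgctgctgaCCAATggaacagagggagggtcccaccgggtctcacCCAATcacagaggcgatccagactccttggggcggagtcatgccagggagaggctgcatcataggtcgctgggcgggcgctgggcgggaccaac

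The windows differed in what they held. The E-box CACGTG was present in the upstream Per1 window, 166 bases before the start, and in the Cry1 window, 60 bases before it, while 6.02% of all 32851 promoter windows of this length held it. Its variant CACGTT was present at 79 bases in Cry1 and at 166 bases in Cry2 (3.85% of all windows). D-boxes were present at 205 and 158 bases in Per3, both as TTATGTAA, and at 24 bases in the upstream Per1 window, as TTATGCAA (3.07% of all windows). The AGGTCA core was matched in the upstream Per1 window alone (14.02% of all windows). CCAAT was found in all 5 windows and in 33.8% of all windows. Neither AGAACA, the core of a glucocorticoid receptor site (16.1% of all windows), nor the cyclic AMP response element TGACGTCA (1.55%) was matched in these 5 windows. A match is a run of letters and not an observed binding site.

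Expression is given as RPKM, the reads on a gene's exons scaled to exon length and to the library total, so that levels can be compared between genes. Fragments on exons ranged from 6183500.5 to 10287969 per library. Per1 (chr11:69100158-69109957, plus strand, 4622 exonic bases in the table) was covered by 963 to 1757 fragments per library, and its table row begins close to the downstream start. Per2 (chr1:91415982-91459328, minus strand) had 118.5 to 492 fragments, Cry1 (chr10:85131700-85185054, minus strand) 113.5 to 307.5 and Cry2 (chr2:92403647-92434069, minus strand) 224 to 426. Per3 (chr4:151003655-151044665, minus strand) was the thinnest, with 34.5 to 144.5 fragments and a counting error of 11.7% at its median of 73. The only other row overlapping a member was D930015M05Rik, on the strand opposite to Cry2, at 0.672 RPKM in WT and 0.541 in KO. Whether the counting used strand is not stated, so its reads and those of Cry2 cannot be told apart where they overlap.

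Among other genes, fibroblast markers were abundant in every library (Col1a1, Col1a2 and Thy1 summed to 1579 RPKM or more) and the 6 pluripotency markers low (0.933 to 9.92 RPKM summed). In a limma comparison of genotypes that called 11.2% of all genes higher and 14.7% lower in KO, all 3 fibroblast markers were higher in KO, by 0.13 to 0.35 on the log2 scale. Of 4 mesoderm and muscle markers Des was higher (0.58) and Tnnt2 lower (-0.31). No ectoderm, endoderm or leukocyte marker was called. The 4 ectoderm and neuron markers nevertheless had log2 differences from -0.87 for Tubb3 to -0.19 for Pax6 (median -0.46), with limma adjusted p-values of 0.0761 for Tubb3, 0.0619 for Map2, 0.119 for Nes and 0.328 for Pax6, and they summed to 6.58 to 27.7 RPKM in WT and 4.48 to 13.9 in KO. The part of these marker differences in the values of the clock genes was not tested, and fewer cells of a type cannot be told apart from less RNA per cell in whole cultures. Nr1d1 was measured at 5.04 ± 1.26 RPKM in WT and 6.39 ± 2.67 in KO (SD, n = 12 time points), and Nr1d2 at 1.85 ± 0.746 and 3.22 ± 1.34. The KO alleles lack an exon, which a value over the whole gene does not show, so these levels are no check of the genotype. The study made that check itself, by quantitative PCR that detected no mRNA with the targeted exons and by cDNA sequencing that showed frameshifts.

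Per1 was by far the most abundant of the 5 transcripts in both genotypes. In WT the order of the mean levels was Per1, Cry2, Cry1, Per2 and Per3. Per1 ranged from 15.4 to 19.9 RPKM with a median of 17.9, and no Per1 library overlapped the range of any other member. Cry2 followed at 3.60 to 6.17 RPKM (median 4.70) and Cry1 at 2.64 to 5.92 (median 4.04). Per2 ranged from 1.18 to 4.89 RPKM (median 2.79) and Per3 from 0.475 to 1.39 (median 0.688). Neighbours from Cry2 downward overlapped in range, but within a library the order was nearly fixed. Cry2 exceeded Cry1 in 11 of 12 WT libraries, and Cry1 exceeded Per2, and Per2 exceeded Per3, in 12 of 12.

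In KO the order was the same except at Cry1 and Cry2. Cry1 ranged from 3.14 to 7.04 RPKM (median 4.56) and Cry2 from 3.74 to 5.48 (median 4.53). These neighbours were not separated: Cry1 was the higher in 5 of 12 KO libraries, and the mean log2 ratio was 0.01 ± 0.28 (SD). Per1 ranged from 14.3 to 17.6 RPKM (median 16.5), Per2 from 1.14 to 3.92 (median 2.22) and Per3 from 0.420 to 1.68 (median 0.770). Expressed as shares, Per1 made up 76.6% to 90.2% of the summed Period RPKM in WT and 77.1% to 91.1% in KO. In each genotype that share was lowest at 32 h and highest at 20 h.

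**Figure D1:**
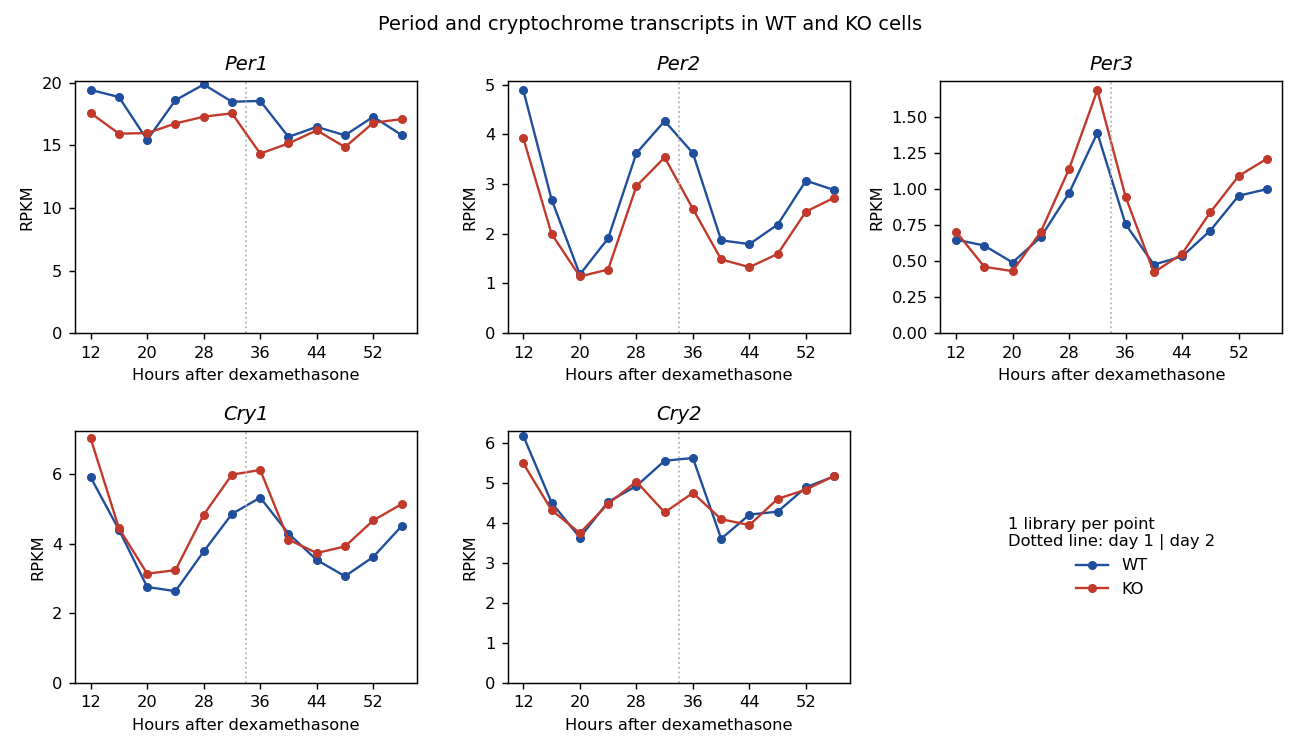
RPKM of the 5 genes against hours after dexamethasone in WT (blue) and KO (red), 1 library per point, with a dotted line between day 1 and day 2. Per2, Per3 and Cry1 show maxima and minima repeating on both days, whereas Per1 stays between 14.3 and 19.9 RPKM.

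The next question was whether the level of any member differed between KO and WT over the 12 time points. In the comparison of genotypes alone (limma on log2(RPKM + 0.1), Benjamini-Hochberg adjustment over all 15112 genes), 0 of the 5 members passed an adjusted p of 0.05, while 25.9% of all genes did. By unadjusted p, 1 member (Per1) was under 0.05, against 37.9% of all genes. WT and KO ranges overlapped for every member. The spread used by this comparison includes the daily rise and fall of each gene, and for the cycling members that spread was wider than the difference between genotypes.

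Per2, a core repressor of the clock and the gene that carries the luciferase knock-in in both genotypes, had 2.83 ± 1.11 RPKM in WT and 2.24 ± 0.924 in KO (SD, n = 12 time points). Its KO value was below the WT value of the same time point at 12 of 12 time points. The ratio of KO to WT ran from 0.671 at 24 h to 0.966 at 20 h, the trough at which both genotypes were lowest, at 1.18 RPKM in WT and 1.14 in KO. The fitted difference was -0.33 on the log2 scale, with an adjusted p of 0.30 in limma without time. With the time point as a block, which compares libraries of the same hour, the limma adjusted p was 2.71e-04, and it stayed between 2.07e-04 and 9.45e-04 when any 1 time point was left out.

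Cry1, the stronger repressor of the cryptochrome pair, went the other way, with 4.06 ± 1.01 RPKM in WT and 4.70 ± 1.20 in KO. KO was above WT at 11 of 12 time points, the exception being 40 h, where the ratio was 0.960. The largest ratio was 1.29 at 52 h. The fitted difference was 0.21 on the log2 scale, with a limma adjusted p of 0.291 without time and 0.00261 with the time point as a block (0.00141 to 0.00714 without any 1 time point). In the blocked comparison 27.9% of all genes were called, 12.1% higher and 15.8% lower in KO, beside 2 of the 5 members, Per2 lower and Cry1 higher. With 5 members, 2 called is not far from that share. An exact sign-flip test within time points (two-sided) gave p = 0.000488 for Per2, the smallest that 12 pairs allow, and p = 0.00146 for Cry1.

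The other members differed less. Per1, an immediate target of glucocorticoids, had 17.5 ± 1.62 RPKM in WT and 16.3 ± 1.08 in KO, a ratio of 0.930. Its KO value was the lower at 10 of 12 hours, with a log2 difference of -0.10 and a limma adjusted p of 0.119, or 0.0682 with the block. That value was 0.0320 to 0.124 when a time point was left out and passed the threshold without 20 h or without 56 h. With the rhythm and trend as covariates it was 0.0399, where 3 members (Per1, Per2 and Cry1) and 29.9% of all genes were called. Per3, the Period gene with the mildest clock phenotype when lost, had 0.765 ± 0.267 RPKM in WT and 0.847 ± 0.383 in KO, and KO was higher at 9 of 12 time points. The 3 exceptions were 16, 20 and 40 h, at or next to its troughs, while the ratio was 1.14 or more at 28, 32, 36, 48, 52 and 56 h.

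Cry2, which opposes Cry1 in setting the period, had 4.75 ± 0.788 RPKM in WT and 4.56 ± 0.521 in KO. KO was higher at 5 of 12 time points, and the widest gap was at 32 h, where Cry2 was at 5.55 RPKM in WT and 4.26 in KO. The limma adjusted p was 0.681 for Cry2 and 0.791 for Per3, and 0.418 and 0.292 with the block. Since a p above the threshold does not show equality, the log2 differences are given as well, at -0.05 for Cry2 and 0.08 for Per3.

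**Figure D2:**
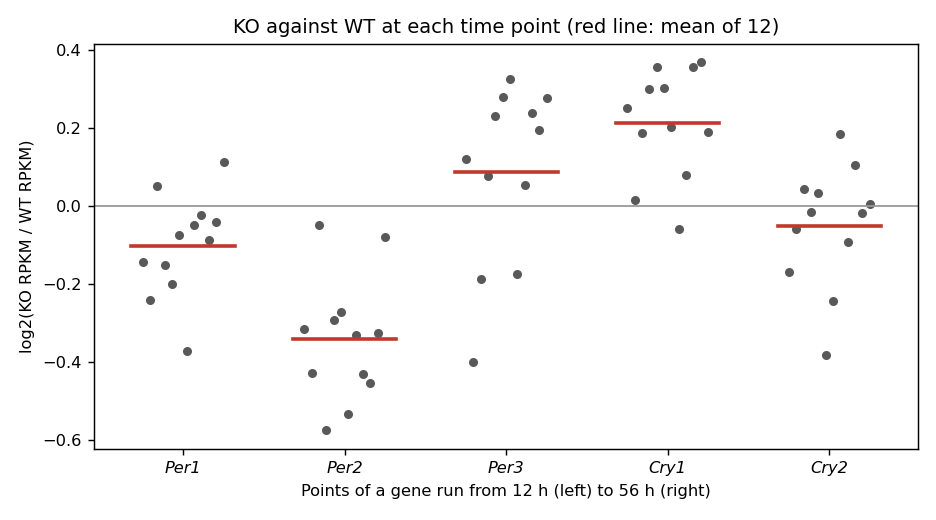
log2 ratio of KO to WT RPKM at each of the 12 time points for the 5 genes, running from 12 h at the left to 56 h at the right within each gene, with the mean as a red line. All 12 Per2 points lie below 0 and 11 of 12 Cry1 points above it, whereas Cry2 has 5 points above 0 and 7 below.

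Within the cryptochrome pair the balance of transcripts moved accordingly. Cry1 made up 36.8% to 54.4% of the summed Cry RPKM in WT, with a median of 46.2%, and exceeded 50% in 1 library, at 40 h. In KO it made up 42.0% to 58.5%, with a median of 49.5%, and exceeded 50% in 5 libraries. The lowest share fell at 24 h in both genotypes. Within the Period family the Per2 share had a median of 13.3% in WT and 11.4% in KO, and the Per3 share 3.21% and 4.29%.

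To ask which members cycled, a 24 h cosine and sine with a linear trend were fitted to each genotype, and limma tested both terms jointly over all 15112 genes. In WT, Cry1 (adjusted p = 0.00535), Per2 (0.0267) and Per3 (0.0335) passed, which is 3 of 5 members, while 0.0463% of all genes, or 7 genes, did. In KO the same members passed, Per3 (8.11e-04), Cry1 (0.00296) and Per2 (0.00767), and 0.0728% of all genes, or 11 genes. Cry2 (0.242 in WT and 0.570 in KO) and Per1 (0.617 and 0.698) did not pass in either genotype.

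The WT calls of Per2 and Per3 rested on the full set of time points, as they passed in 3 and 2 of the 12 fits without 1 time point. Cry1 passed in 10 of 12, with a limma adjusted p of at most 0.0616. Without 24 h or without 36 h, 0 members passed in WT, and without any 1 time point at most 2 did. The unadjusted p-values then reached at most 9.29e-05 for Per2, 1.22e-05 for Cry1 and 1.19e-04 for Per3. In KO 3 members passed without any 1 time point, except that Per2 was lost without 32 h (adjusted p = 0.106). With both genotypes fitted by a shared rhythm, a test added after the data were seen, the limma adjusted p-values were 2.27e-05 for Cry1, 2.91e-05 for Per3 and 1.07e-04 for Per2, and these 3 also passed when each time point was left out in turn (0.086% of all genes were called). Cry2 had 0.0772 there, and passed without 32 h at 0.0265, and Per1 had 0.306.

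Per2 had the widest range in WT, a highest over lowest value of 4.14, while in KO that of Per3 was wider, at 4.01 against 3.44. The WT values of Per2 values fell from 4.89 RPKM at 12 h to 1.18 at 20 h, climbed to 4.27 at 32 h, fell to 1.79 at 44 h and reached 3.07 at 52 h. KO followed the same course, from 3.92 at 12 h to 1.14 at 20 h, 3.54 at 32 h, 1.33 at 44 h and 2.73 at 56 h. The fitted amplitude, the distance from mean to peak on the log2 scale, came to 0.71 ± 0.12 (SE) for WT and 0.75 ± 0.09 for KO, equal to a peak-to-trough ratio of 2.66 and 2.81. The cosine and the linear trend together took up 80.7% of the variance over time in WT and 89.4% in KO.

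Per3 rose to a sharp maximum at 32 h in both genotypes. WT was at 0.489 RPKM at 20 h, 1.39 at 32 h and 0.475 at 40 h, and KO at 0.429, 1.68 and 0.420. The amplitude of Per3 came to 0.53 ± 0.08 for WT and 0.72 ± 0.09 for KO, the KO minus WT difference being 0.19 with a 95% interval from -0.06 to 0.44. The interval was 0.06 to 0.32 when the residual shared by libraries of the same hour was taken into account. That form was added after the data were seen. The limma test of a difference in rhythm did not call Per3 (unadjusted p = 0.263, or 0.0244 with the time point as a block, adjusted p = 0.840). Without the block it called 0 of 15112 genes in all (4.82% had an unadjusted p under 0.05). With the block it called 0 as well, and 837 of 15112 genes had an unadjusted p under 0.05.

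The amplitude of Cry1 was 0.46 ± 0.05 in WT, against 0.45 ± 0.06 in KO, with peak-to-trough ratios of 1.90 and 1.86. WT fell from 5.92 RPKM at 12 h to 2.64 at 24 h and returned to 5.33 at 36 h, then to 3.07 at 48 h. KO fell from 7.04 at 12 h to 3.14 at 20 h, returned to 6.13 at 36 h and reached its second low of 3.74 at 44 h. The lowest samples of Cry1 were therefore at 20 h and 44 h in KO and at 24 h and 48 h in WT, but the values at the neighbouring hour were close. KO had 3.24 RPKM at 24 h and 3.93 at 48 h, and WT had 2.76 at 20 h, so at 113.5 to 255.5 fragments these 3 lows differed from their neighbours by less than the counting error. Cry2 swung less, with amplitudes of 0.28 ± 0.06 and 0.17 ± 0.05, and Per1 least, with 0.11 ± 0.04 and 0.09 ± 0.04.

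Amplitudes were also compared between members. Of the 10 pairs of members, the interval of the amplitude difference excluded 0 for 8 in WT and 8 in KO. The difference of Cry2 minus Per2 was -0.43 (-0.65 to -0.20) in WT and -0.58 (-0.78 to -0.37) in KO, and that of Per2 minus Per1 was 0.60 (0.36 to 0.83) and 0.65 (0.44 to 0.87). Per2 and Per3 were not separated in either genotype. Per3 and Cry1 were separated in KO, Cry1 minus Per3 being -0.27 (-0.50 to -0.04), and not in WT. All 5 intervals of the amplitude difference between genotypes included 0 when the libraries were treated as unpaired.

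Fitted peak times ran in the order Per3, Per1, Cry2, Per2 and Cry1 in WT. Per1 and Cry2 did not pass the test of rhythm in either genotype, so their peaks and places in the order are loosely set. Without the trend term the WT peaks of Per1 and Cry2 were both at 32.6 h. In the cycle from 24 to 48 h after dexamethasone, the fitted peak was at 30.4 ± 0.539 h (SE) for Per3, 30.7 ± 1.34 h for Per1, 32.1 ± 0.820 h for Cry2, 32.3 ± 0.707 h for Per2 and 35.2 ± 0.450 h for Cry1. The neighbours from Per3 to Per2 in this order were not separated. Cry1 followed each of the others. It peaked 4.77 h after Per3 (3.16 to 6.38), 4.53 h after Per1 (1.55 to 7.51) and 2.86 h after Per2 (1.73 to 3.99), and the peak of Cry2 minus that of Cry1 was -3.10 h (-4.86 to -1.35). These were the 4 of 10 pairs in WT whose interval excluded 0.

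In KO Per1 was fitted at 29.4 ± 1.42 h, Per3 at 30.4 ± 0.464 h, Cry2 at 31.4 ± 1.25 h, Per2 at 32.4 ± 0.496 h and Cry1 at 33.7 ± 0.585 h. Cry1 was again the last, after Per3 by 3.29 h (1.73 to 4.85), Per1 by 4.26 h (0.634 to 7.89) and Per2 by 1.31 h (0.510 to 2.12). From Cry2 it was not separated in KO, the peak of Cry2 minus that of Cry1 being -2.29 h (-4.997 to 0.413). The peak of Per3 minus that of Per2 was -1.98 h (-3.48 to -0.469) in KO and -1.91 h (-3.89 to 0.069) in WT. The daily order of the cycling members was therefore Per3, then Per2, then Cry1 in both genotypes, with the first of these steps separated in KO alone.

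**Figure D3:**
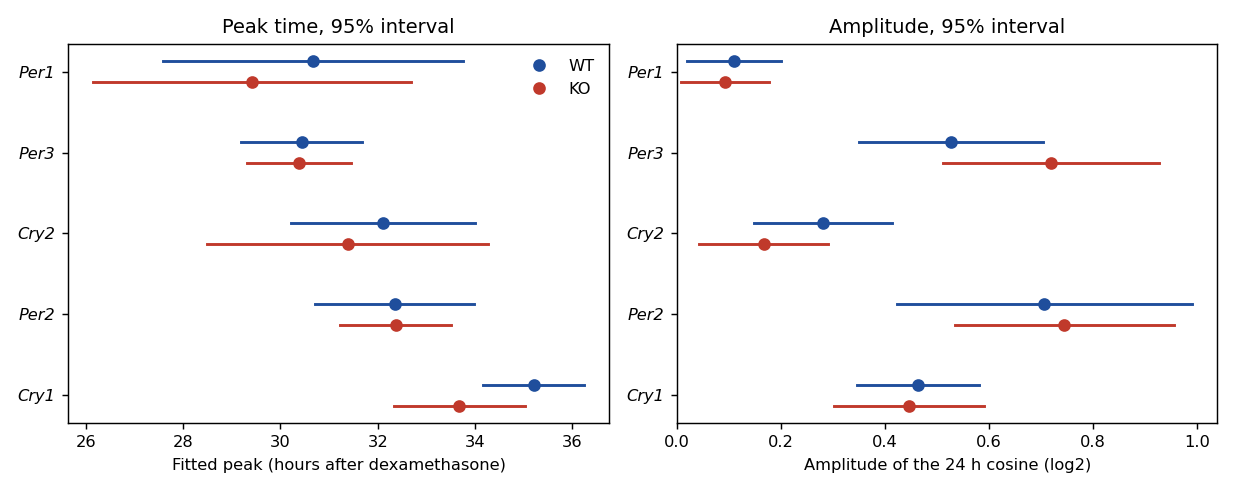
Fitted peak time in hours after dexamethasone (left) and log2 amplitude of the 24 h cosine (right) for each gene in WT (blue) and KO (red), with 95% intervals as bars. Per2 peaks at 32.3 h (WT) and 32.4 h (KO), and Per3 at 30.4 h in both, whereas Cry1 peaks at 35.2 h (WT) and 33.7 h (KO).

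Fitted peaks were then compared between genotypes. KO minus WT was -1.53 h for Cry1, with an interval from -3.09 to 0.036 h with the libraries unpaired and from -2.26 to -0.795 h with the residuals of the same time point paired, a form added after the data were seen. It ranged from -1.70 to -1.32 h when each time point was left out. The differences for Per2 (0.019 h), Per3 (-0.048 h), Cry2 (-0.718 h) and Per1 (-1.26 h) had intervals that included 0 in both forms. The unpaired interval for Per2 ran from -1.81 to 1.85 h, so it contained a shift of the size seen for Cry1. The order of the shifts depended on the trend term: without it the peak of Per1 was at 32.6 h in WT and 29.9 h in KO, further apart than that of Cry1 at 35.2 h and 33.8 h.

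Measured within each genotype against Per2, which shares the libraries of Cry1, the lag of Cry1 behind Per2 was 2.86 h (WT) or 1.31 h (KO). The KO minus WT difference was -1.55 h, with an interval from -2.82 to -0.271 h that treats the genotypes as unpaired. It was the only 1 of the 10 lags between members whose interval excluded 0. As the Per2 peak differed by 0.019 h, this lag largely restates the Cry1 shift. The lag of Cry1 behind Per3 changed by -1.48 h (-3.54 to 0.581) and behind Per1 by -0.269 h (-4.59 to 4.05). The Cry2 peak minus the Cry1 peak changed by 0.810 h (-2.15 to 3.77). No correction for the 10 lags was made. Without each time point the difference for Cry1 behind Per2 ran from -1.88 to -1.29 h. Its interval excluded 0 in 10 of 12 cases, the exceptions being without 24 h (-3.00 to 0.125 h) and without 40 h (-2.80 to 0.212 h). With a period of 22 h it was -1.73 h (-3.11 to -0.354), and with 26 h it was -1.20 h (-2.99 to 0.589). The limma test of a difference in rhythm, which is adjusted over all genes, did not call Cry1 (unadjusted p = 0.136, or 0.00457 with the time point as a block, adjusted p = 0.692). In the blocked form 837 of 15112 genes had an unadjusted p under 0.05.

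The period with the smallest residual, scanned from 20 to 28 h in steps of 0.1 h, came to 21.9 h (WT) and 22.4 h (KO) for Per2, 24.2 h and 24.0 h for Per3, and 24.8 h and 23.5 h for Cry1. Leaving out a time point moved the period of Cry1 over 24.3 to 25.1 h for WT and 22.8 to 24.5 h for KO. Over the 5 members jointly the values were 23.3 h (WT) and 23.1 h (KO). With 12 time points 4 h apart these periods are coarse, and no test was made on them.

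Damping was read from the same genes 24 h apart, day 1 being 12 to 32 h and day 2 being 36 to 56 h, each with 6 time points. For Per2 in WT the high values were lower on day 2, with 4.89 RPKM at 12 h against 3.62 at 36 h and 4.27 at 32 h against 2.88 at 56 h. Its low values were higher, with 1.18 RPKM at 20 h against 1.79 at 44 h. KO showed the same pattern, with 3.92 against 2.501 RPKM, 3.54 against 2.73 and 1.14 against 1.33 at these hours. Cry1 behaved alike, with 5.92 RPKM at 12 h against 5.33 at 36 h and 2.76 at 20 h against 3.54 at 44 h in WT, and 7.04 against 6.13 and 3.14 against 3.74 in KO. For both genes and both genotypes 4 of 6 values were lower on day 2, and the 2 that were higher were those at 44 and 48 h.

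**Figure D4:**
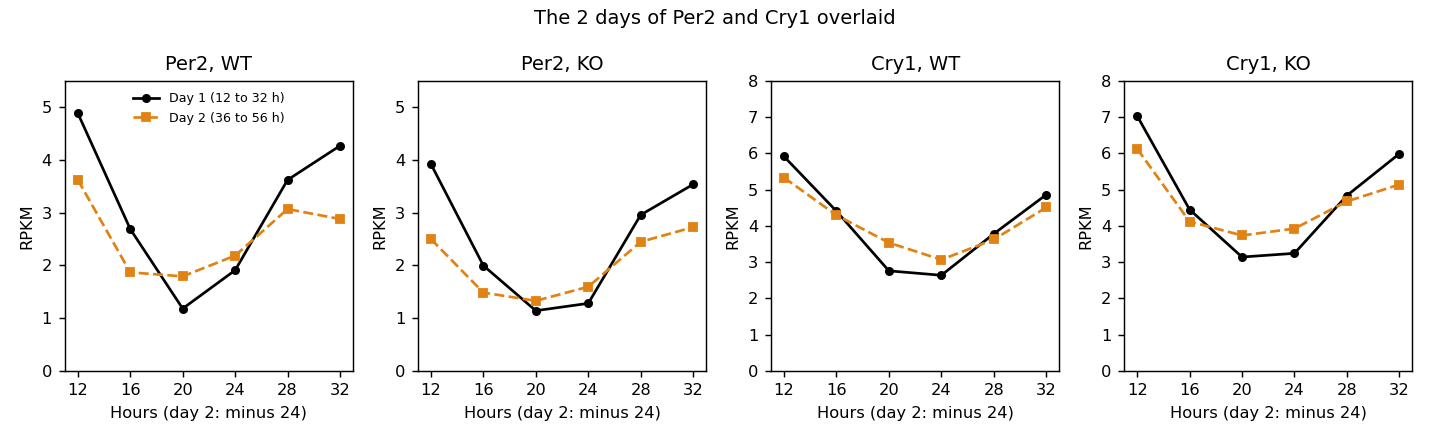
Per2 and Cry1 RPKM on day 1 (black, 12 to 32 h) and day 2 (orange, 36 to 56 h, shifted back by 24 h) in WT and KO, 1 library per point. In all 4 panels the day 2 curve is lower at the hours of high expression and higher at 20 and 24 h.

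Fitted day by day, the log2 amplitude of Per2 was 0.92 on day 1 and 0.45 on day 2 in WT, and 0.91 and 0.55 in KO. Day 2 thus kept 49.2% of the day 1 amplitude in WT (95% interval 19.2% to 126%) and 59.8% in KO (38.1% to 94.1%). For Cry1 it was 0.57 and 0.36 in WT and 0.58 and 0.31 in KO, which is 62.5% (43.8% to 89.1%) and 54.1% (28.9% to 101%). Per3 kept 84.7% in WT (41.1% to 174%) and 75.4% in KO (41.3% to 138%). The day amplitudes of Cry2 were 0.31 and 0.23 in WT and 0.15 and 0.18 in KO, and those of Per1 0.11 and 0.05 in WT and 0.08 and 0.07 in KO, all with intervals of the day difference that included 0.

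In the test across all genes, the change of rhythm from day 1 to day 2 did not pass for any member. The limma test called 0 of the 5 members and 0 of 15112 genes in each genotype, with 5.73% of genes at an unadjusted p under 0.05 in WT and 6.45% in KO. Per2 had unadjusted p = 0.0333 in WT and 0.0591 in KO, and Cry1 had 0.0445 and 0.0220. With both genotypes together, again a test added after the data were seen, Cry1 had unadjusted p = 0.00113 and Per2 0.00195, each with an adjusted p of 0.402, where 8.98% of genes were under 0.05 unadjusted and 0 were called. Per3 (0.306), Cry2 (0.525) and Per1 (0.666) had larger unadjusted p-values there. The damping did not differ between genotypes past the threshold for any member, with unadjusted p from 0.802 to 0.898 (0 genes called, and 3.57% under 0.05 unadjusted).

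Mean levels were compared between the days as well. The limma comparison of day 2 with day 1 called 0 of the 5 members in WT and in KO, while it called 1.12% of all genes in WT and 2.21% in KO. Those shares rested on single time points, since limma called 0 genes in WT without 28 h or without 40 h (1654 and 2232 had an unadjusted p under 0.05) and 40 in KO without 28 h. Per2 had log2 differences of -0.16 in WT and -0.19 in KO. With both genotypes together it had -0.18 (unadjusted p = 0.0348, limma adjusted p = 0.195), and it was called without 32 h (adjusted p = 0.0332). Per1 had the smallest unadjusted p in WT, 0.0254, with a log2 difference of -0.15 (adjusted p = 0.267). Its mean was 18.5 ± 1.57 RPKM on day 1 and 16.6 ± 1.13 on day 2 in WT (SD, n = 6 time points), and 16.9 ± 0.753 and 15.8 ± 1.12 in KO. For Per1, 5 of 6 values were lower on day 2 in each genotype. With both genotypes together its adjusted p was 0.0689 and its log2 difference -0.12, beside 6.9% of all genes called, and it was called without 20 h (adjusted p = 0.0499).

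Among the other genes of the loop, the core clock list held 14 genes, of which 13 were tested. In the limma test of rhythm, 3 passed in WT and 5 in KO, where 0.0463% and 0.0728% of all genes passed. Those in WT were Nr1d2 (log2 amplitude 0.69), Dbp (0.46) and Tef (0.43). Those in KO were Dbp (0.88), Nr1d1 (0.73), Nr1d2 (0.71), Tef (0.62) and Hlf (0.60). In WT, Nr1d1 had an amplitude of 0.39 (unadjusted p = 0.00138) and Hlf 0.37 (0.00147), each with a limma adjusted p of 0.448. The limma test of a difference in rhythm called 0 of the 13 genes, so a rhythm particular to KO was not shown for either. Dbp, Tef and Hlf encode activators of D-box genes, and Nr1d1 and Nr1d2 encode the REV-ERBs. In level, 6 of 13 were called higher in KO and 0 lower, where 11.2% and 14.7% of all genes were. They were Nr1d2 (log2 difference 0.76), Npas2 (0.62) and Arntl (0.41), which encode a REV-ERB and 2 activators, and Ciart (0.39), Bhlhe40 (0.30) and Nfil3 (0.21), which encode repressors. The list's median log2 difference was 0.24, beside -0.01 for all genes.

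Of 11 genes analysed here whose products modify PER and CRY proteins, such as kinases and ubiquitin ligases, all were tested and 0 passed the test of rhythm in either genotype, where 0.0463% of all genes passed in WT and 0.0728% in KO. In level, where 25.9% of all genes were called, Csnk1a1 and Ppp1cb, which encode a casein kinase and a phosphatase subunit, were called higher in KO (log2 differences 0.14 and 0.10). The other 9 did not pass, and the median log2 difference of the 11 genes was close to that of all genes, 0.02 beside -0.01. Of 9 glucocorticoid-induced genes, 0 passed the test of rhythm and 4 passed that of level, beside the same shares of all genes, with Errfi1 higher (0.23) and Pdk4 (-0.30), Sgk1 (-0.28) and Zbtb16 (-0.31) lower in KO. Per1, itself induced by glucocorticoids, had -0.10 in the same comparison.

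Finally, the genes whose time course was most like that of each member were taken by Pearson r of log2(RPKM + 0.1) over the 24 libraries, after removal of the genotype means, among 11806 or 11807 other genes with at least 1 RPKM. These values are a description, since libraries 24 h apart share the rhythm that is being matched. Per3 was closest to Dbp (r = 0.893), Tef (0.884) and Hlf (0.818), all of the D-box family. Per2 was closest to Hlf (0.888) and had Cry1 (0.861) among its first 3. Cry1 had Per2 (0.861) and Tspan4 (0.794), which encodes a membrane protein, and Cry2 had Per2 (0.838), Tef (0.773) and Hlf (0.728).

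The genes most like Per1 were Tln1 (0.808), Inf2 (0.805) and Fn1 (0.793), which encode talin, a formin and fibronectin, and none of its first 3 came from the core clock list. Its strongest opposite correlations were with Wbp5 (-0.822), Tomm5 (-0.821) and Snx2 (-0.819). Among the members themselves, r over the 24 libraries was highest for Per2 with Cry1 (0.861) and Per2 with Cry2 (0.838), and lowest for Per1 with Cry1 (0.336) and Per1 with Per3 (0.376). For Per2 and Cry1 it was 0.786 in the 12 WT libraries and 0.937 in the 12 KO libraries. For Per2 and Cry2 the order was the opposite, at 0.922 in WT and 0.750 in KO. Neither difference between genotypes was tested.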

How the data were processed

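RNA was measured by polyA RNA-seq in 24 libraries, with groups and time points taken from the labels. Per the labels and the study's methods, the authors trimmed reads with Trimmomatic 0.36, mapped them with STAR 2.5.4b to GRCm38, removed alignments of mapping quality under 10 and counted exons with HOMER, and they deposited the result as RPKM with the exonic length in bases. Reads recovered from RPKM, length and the library total were whole or in steps of 0.5 for 100% of values (tolerance 0.005), and served to state depth only.

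Here log2(RPKM + 0.1) was fitted with limma 3.58.1 in R 4.3.3, with Benjamini-Hochberg adjustment over 15112 genes and a threshold of 0.05. Cosine fits, with standard errors by the delta method and 95% intervals by the t quantile, the exact sign-flip test (4096 flips) and the promoter search were made in Python 3.11.15 (scipy 1.17.1, numpy 2.4.6, matplotlib 3.10.9, pandas 2.3.3). MetaCycle, which the study used, was not run. Some limma tests were tried on simulated data with independent noise in each library. These were level without the block, rhythm in WT and its difference between genotypes, damping in WT and with both genotypes, and level between days in WT. The tests with the time point as a block and the test of a difference in damping were not tried in this way. Time points have 1 library each, so no p-value measures the spread between lines of a genotype. Without a term for time, p-values measure the spread between libraries of different hours. In the tests of rhythm and of days that spread is taken around the fitted curve. With the block and in the sign-flip test it is the spread over hours of the KO minus WT difference. No source says whether the libraries came from separate cultures. The members and lists were chosen with earlier results of these data known. Named genes are the members, the called genes of the lists, and the first 3 by likeness to each member (for Per1 also the first 3 opposite). Of the lists and named genes, 2 genes are not reported here, and 1 of them is left out of the counts of its list. The alternatives changed the pseudocount, filter, normalization, period, trend, covariates, block, days and time points.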

Additional observations from a re-analysis of the deposited data

How the results depend on the processing

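Of the 5 members, 0 differed in level between KO and WT without a term for time, where 25.9% of all genes were called. With the time point as a replicate block 2 did (27.9% of all genes), and with rhythm and trend as covariates 3 did (29.9%). By the exact test of sign flips, where p is not adjusted, Per2, Cry1 and Per1 (0.0176) were under 0.05. Per3 had 0.0542 and Cry2 0.219 there. The sign-flip test was run on the members alone, so no share of all genes stands beside its count of 3. The shared time point comes from the labels. Deviations of WT and KO libraries of the same hour had a mean Pearson r of 0.138 over 12243 genes (-0.146 to 0.285, 7 of 12 pairs over 0.1). The mean was -0.0124 for 132 pairs of different hours (-0.347 to 0.341, 33 pairs over 0.1), so the 2 ranges overlapped. The block was otherwise applied only to the differences in rhythm and in damping between genotypes, where 0 genes were called with it. For level it gave 2 to 3 members without any 1 time point, and 4212 genes in place of 3918. Without any 1 time point and without a term for time 0 members were called. The 3 calls of a WT rhythm became 2 with a pseudocount of 1, 2 on RPKM without logarithm, 2 with a mean of at least 1 RPKM (where Per3 was not tested), 1 without a filter on low values, 1 with a period of 22 h, 0 with 26 h, 0 with the WT libraries fitted alone and 0 to 2 without any 1 time point, and the 3 calls in KO became 2 with a period of 22 h, with 26 h, with the KO libraries alone, on RPKM without logarithm and with a mean of at least 1 RPKM, and 2 to 3 without any 1 time point. With the genotypes together, 3 to 4 members were called rhythmic without any 1 time point, and 0 to 1 were called in level between days. The cause of these losses was not tested. Over all genes, WT rhythm calls went from 7 to 4 without the filter, 2 at 22 h, 1 at 26 h and 1 with WT alone, and KO calls from 11 to 5 at 22 h, 6 at 26 h and 6 with KO alone. Level calls between genotypes went from 3918 to 1115 with day 1 alone and 1903 with day 2 alone. Calls of level between days went in WT from 170 to 257 with a pseudocount of 1, 87 without the filter and 87 at 22 h, and in KO from 334 to 188 without the filter and 186 at 22 h. Without any 1 time point they ran from 0 (without 28 h or without 40 h) to 283 in WT and from 40 (without 28 h) to 370 in KO.

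Directions that turned were those of small differences between days, none of them called. Without any 1 time point the log2 difference of day 2 against day 1 ran in WT from -0.0011 to 0.063 for Cry1 and from -0.16 to 0.024 for Per3. In KO it ran from -0.065 to 0.028 for Cry1, from -0.068 to 0.069 for Cry2 and from -0.021 to 0.14 for Per3. With both together it ran from -0.027 to 0.039 for Cry1, from -0.085 to 0.020 for Cry2 and from -0.093 to 0.081 for Per3. It was 0.013 for Cry1 in KO with a period of 22 h and 0.0041 for Per3 with both together after quantile normalization. Depth limits Per3 most, with a counting error of 11.7% at its median, and 1 library per hour limits every statement on a single time point.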
